A study of Mus musculus with 9 samples.

Results

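The ion channel genes described here are the protein-coding mouse genes whose symbols start with Kcn, Cacna, Cacnb, Cacng, Scn or Trpm, plus Abcc8 and Abcc9. This rule, applied to the Ensembl identifiers of the count table through GENCODE M21, gave 148 genes of 22048. The set holds 96 potassium channel genes, 26 calcium channel genes, 18 sodium channel genes and 8 Trpm genes. It includes a gene that encodes no channel, Scnm1, a splicing protein whose symbol shares the prefix. RNA came from pancreatic islets of wild-type ICR mice, an outbred stock, isolated from 9 mice whose age and sex the labels do not give. All islets were cultured for 3 days in RPMI medium with 10% fetal bovine serum and antibiotics, and the cultures differed in glucose. The medium held 11.8 mM glucose (the control), 20 mM or 35 mM, meant to stand for normoglycemia, hyperglycemia and extreme hyperglycemia, with 3 libraries each. The treatment text gives 25 mM for the highest concentration, whereas titles and sample characteristics give 35 mM, which was followed.

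An islet beta cell turns glucose into an electrical signal. Metabolism closes ATP-sensitive potassium (KATP) channels, the membrane depolarises, voltage-gated sodium and calcium channels open, and calcium entry triggers insulin release. Voltage- and calcium-activated potassium channels then repolarise the cell, and Trpm cation channels add a depolarising current. Islets also hold alpha, delta and other cells with channels of their own, and in whole islets a smaller number of cells of a type and less RNA per cell cannot be told apart.

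Libraries held 3228648 to 4559561 gene counts. On the scale of levels used here (CPM, counts per 1e+06 gene counts with TMM scaling) 1 CPM stood for 3.26 to 4.34 reads. Channel genes took 0.0943% to 0.13% of the gene counts. Summed beta cell markers, mainly Ins1 and Ins2, stood at 447300 to 650100 CPM at 11.8 mM, 500500 to 567200 at 20 mM and 483500 to 591000 at 35 mM. Mafa, a defining transcription factor of mature beta cells, was at 0 in 8 libraries and at 0.281 CPM in 20 mM replicate 3. None of the 11 marker lists of islet and other cell types had a member called lower at either raised concentration. Of all genes tested 0.236% were called lower at 35 mM and 0.0308% at 20 mM. A beta cell marker, 1 member, was called higher at 35 mM, as were 0.626% of all genes. Calls this rare cannot show that the cell types kept their share. At 35 mM the median log2 fold changes of the lists ran from -0.95 (endothelial, 3 genes tested) to 0.22 (Schwann and neuron, 7 tested). Fibroblast and stellate markers summed to 224 to 386 CPM at 11.8 mM, 154.5 to 252 at 20 mM and 142 to 251 at 35 mM. Alpha cell markers, mainly Gcg, summed to 15590 to 16930 CPM at 11.8 mM, 13310 to 16780 at 20 mM and 13260 to 14900 at 35 mM. Endothelial markers summed to 13.0 to 17.5, 6.75 to 16.4 and 9.06 to 10.7 CPM. The alpha and endothelial sums at 35 mM thus lay below all controls, without a member called, and the part of these cell types in the channel results, Trpm5 included, was not tested.

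Trpm5 fell at 35 mM and was the channel gene called in these data. It encodes a monovalent cation channel opened by intracellular calcium, known from taste cells and from beta cells. Kcnh1, which encodes a voltage-gated potassium channel of the ether-a-go-go family, had the highest log2 fold change among the channel genes tested at 35 mM but did not pass. The sequences before the annotated starts of both genes are shown because their values at 35 mM lay furthest from 0 in each direction among the channel genes tested. They are the 250 bases upstream, 5′ to 3′ on the strand of the gene, from RefSeq on GRCm38.p6, at chr7:143094643-143094892 on the minus strand and chr1:192190527-192190776 on the plus strand. Capitals mark CG pairs.
Trpm5: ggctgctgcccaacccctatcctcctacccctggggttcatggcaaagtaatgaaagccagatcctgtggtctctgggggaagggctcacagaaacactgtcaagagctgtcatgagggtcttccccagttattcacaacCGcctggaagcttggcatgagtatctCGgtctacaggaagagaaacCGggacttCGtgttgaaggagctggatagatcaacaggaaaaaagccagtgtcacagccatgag
Kcnh1: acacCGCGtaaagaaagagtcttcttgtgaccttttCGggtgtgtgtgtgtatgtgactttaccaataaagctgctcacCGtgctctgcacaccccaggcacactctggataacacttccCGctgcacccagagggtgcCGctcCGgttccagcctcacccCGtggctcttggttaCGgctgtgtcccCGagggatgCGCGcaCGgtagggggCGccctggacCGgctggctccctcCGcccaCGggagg

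The Trpm5 window held 4 CG pairs and the Kcnh1 window 17, against a median of 6 over the 32851 windows of the RefSeq table, which covers 109 of the 148 genes. Searched on both strands, neither window held the E-box CACGTG, the cAMP response element TGACGTCA or the TATA box TATAAA. These letters occur in 6.02%, 1.55% and 12.4% of all windows of this length. The GC box GGGCGG, present in 32.7% of windows, occurred 0 times in that of Trpm5 and 1 time in that of Kcnh1. None of these motifs is part of another, and a match or its lack describes letters only.

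Of the 148 genes, 26 had no count in any library and 122 were counted, of which 54 reached a mean of 1 CPM. The expression filter passed 39, all of them among these 54, and only they were tested. Genes that reached 1 CPM were 30 of 96 potassium channel genes, 11 of 26 calcium channel genes, 9 of 18 sodium channel genes and 4 of 8 Trpm genes. Classes differed in how many members were counted. All 4 calcium channel beta subunits had counts and 3 reached 1 CPM, whereas of the 10 silent Kv subunits, which work only beside other Kv subunits, 5 had no count and none reached 1 CPM. Of 14 leak channel genes of the K2P family 4 reached 1 CPM, of 10 calcium channel alpha1 subunits 3, and of 10 sodium channel alpha subunits 3.

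**Figure D1:**
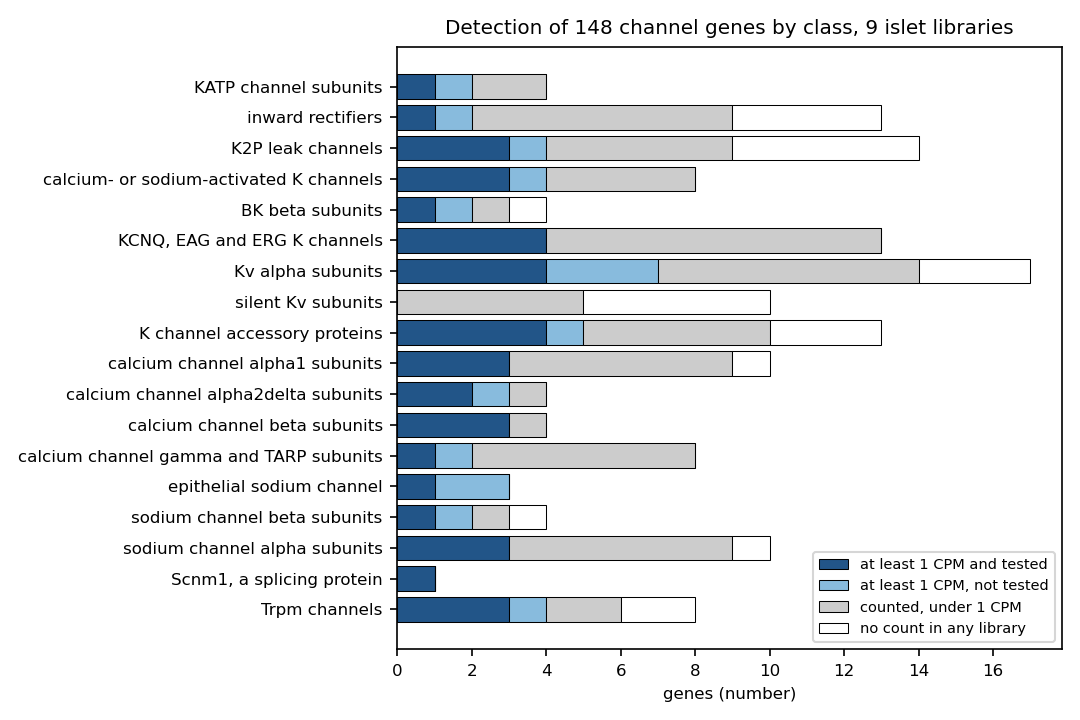
Number of channel genes (x axis) in each class (y axis), split by whether they were tested, reached a mean of 1 CPM without being tested, were counted under 1 CPM or had no count in any of the 9 libraries. Each class but the silent Kv subunits had at least 1 gene tested, and 39 of 148 genes were tested in all.

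KATP channels pair a pore subunit with a sulfonylurea receptor. Abcc8, the receptor of the beta cell type and the target of sulfonylurea drugs, lies at chr7:46104523-46180033 on the minus strand of GRCm38. It stood at 281.9, 269.8 and 252.5 CPM at 11.8 mM, at 260.7, 284.2 and 298.3 at 20 mM and at 324.5, 340.4 and 295.7 at 35 mM (replicates 1 to 3). All 3 libraries at 35 mM lay above all 3 at 11.8 mM, while those at 20 mM overlapped the control. The log2 fold change at 35 mM was 0.26 ± 0.13 (SE; 95% interval 0.00 to 0.51; adjusted p = 0.472 by the quasi-likelihood test of edgeR, adjusted after Benjamini and Hochberg over 9739 genes), so the difference did not pass. At 20 mM it was 0.07 ± 0.13.

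Kcnj11, the pore partner of Abcc8, gave 3 reads in all, 1 in 20 mM replicate 1 and 2 in 35 mM replicate 1. The other 7 libraries had none, which allows up to 3 counts, or 0.692 to 0.871 CPM in those libraries. The counts come from transcript 3′ ends inside annotated exons, the annotation used is not given in the sources used here, and a low count therefore does not show that the gene was little transcribed. Kcnj8 and Abcc9, which form the KATP channel of vascular smooth muscle and pericytes, were near the limit of counting. Kcnj8 ranged from 0 to 1.845 CPM and Abcc9 from 0.29 to 2.31 CPM, with no separation by glucose, and neither was tested. Summed pericyte and smooth muscle markers ranged from 23.6 to 42.7 CPM at 11.8 mM, 24.7 to 29.8 at 20 mM and 30.2 to 32.7 at 35 mM.

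Leak channels of the K2P family help to set the resting potential. Kcnk3 stood at 68.5, 43.6 and 44.98 CPM at 11.8 mM, at 51.5, 63.9 and 58.4 at 20 mM and at 58.3, 60.7 and 76.4 at 35 mM. The concentrations overlapped, 1 control library lying well above the other 2, and the log2 fold change at 35 mM was 0.32 ± 0.16 (adjusted p = 0.520 by edgeR). Kcnk1 stood at 32.65, 38.0 and 32.5 CPM at 11.8 mM, at 40.2, 44.05 and 41.85 at 20 mM and at 34.5, 38.5 and 53.8 at 35 mM. Its libraries at 20 mM lay above the control and those at 35 mM overlapped it, with log2 fold changes of 0.29 ± 0.17 at 20 mM (adjusted p = 0.701) and 0.29 ± 0.17 at 35 mM (adjusted p = 0.577). Kcnk16, a leak channel known from beta cells, gave 4 reads in all, each of them in a 35 mM library, and was not tested. Of the inward rectifiers Kcnj12 was tested. Its mean (± SD, n = 3) was 4.49 ± 1.11 CPM in the controls, 2.525 ± 0.844 with 20 mM and 2.885 ± 1.545 with 35 mM, without passing. Of the G protein-gated inward rectifiers, which carry inhibitory hormone signals, Kcnj6 had no count and Kcnj5 gave 15 reads in all. They do not stand for the whole group, since another of its genes reached a mean of 1 CPM without being tested.

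Delayed rectifiers of the Kv family end the action potential. Kcnb2, a pore gene of this kind, stood at 27.6, 18.9 and 34.8 CPM at 11.8 mM, at 35.9, 28.4 and 31.7 at 20 mM and at 33.9, 27.5 and 20.7 at 35 mM. Its concentrations overlapped, and the log2 fold changes of 0.25 ± 0.20 at 20 mM and 0.03 ± 0.21 at 35 mM did not pass. Kv channels also carry accessory proteins. Kcnip1, a calcium-binding partner of A-type Kv channels, stood at 38.0, 35.3 and 41.2 CPM at 11.8 mM, at 44.2, 50.1 and 45.2 at 20 mM and at 45.4, 46.6 and 44.7 at 35 mM. All 6 libraries of the raised concentrations lay above all 3 controls, yet the log2 fold changes of 0.29 ± 0.15 and 0.26 ± 0.15 did not pass (adjusted p = 0.6375 at 20 mM and 0.577 at 35 mM). Both share the controls. Kcnab3, a cytosolic beta subunit of Kv channels, stood at 19.3 ± 5.79 CPM at 11.8 mM, 15.7 ± 3.31 at 20 mM and 21.6 ± 1.32 at 35 mM. It was the channel gene with the smallest p between 35 and 20 mM, and the channel gene whose libraries separated there (log2 fold change 0.46 ± 0.22; adjusted p = 0.9325).

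Kcnh1 stood at 5.04, 3.69 and 4.93 CPM at 11.8 mM, at 6.75, 7.05 and 5.62 at 20 mM and at 10.96, 9.83 and 6.51 at 35 mM. Every library at a raised concentration lay above every control, and the concentrations of 20 and 35 mM overlapped. The log2 fold change at 35 mM was 1.01 ± 0.30 (95% interval 0.40 to 1.61; adjusted p = 0.131 by edgeR), on 220 reads in all. At 20 mM it was 0.52 ± 0.31 (adjusted p = 0.722). Its relatives of the ERG type, which carry a repolarising current in endocrine cells, had values nearer 0. Kcnh2 had -0.19 ± 0.29 and Kcnh6 0.08 ± 0.29 at 35 mM, and neither passed. Kcnq1, a channel of the KCNQ family at 0 to 1.446 CPM, was not tested.

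Calcium-activated potassium channels link calcium entry to repolarisation. Kcnma1, the pore of the large-conductance BK channel, had a log2 fold change of 0.34 ± 0.30 at 35 mM and -0.07 ± 0.31 at 20 mM. Kcnmb2, a BK subunit that makes the channel inactivate, stood at 30.0, 33.0 and 40.3 CPM at 11.8 mM, at 27.3, 29.7 and 28.1 at 20 mM and at 23.8, 24.6 and 28.0 at 35 mM. Every control lay above every library at 20 and 35 mM. The log2 fold changes were -0.28 ± 0.17 and -0.43 ± 0.17 (adjusted p = 0.722 and 0.331 by edgeR), which did not pass. Kcnn3, a small-conductance channel, stood at 3.45, 2.075 and 1.74 CPM at 11.8 mM, at 4.29, 4.03 and 5.90 at 20 mM and at 5.08, 2.89 and 3.68 at 35 mM. Its libraries at 20 mM lay above the controls (log2 fold change 0.96 ± 0.41; adjusted p = 0.519), whereas those at 35 mM overlapped them (0.68 ± 0.42). Kcnu1, known as the potassium channel of sperm, is grouped with these genes by symbol, not by calcium gating. It was counted at 1.87 to 8.71 CPM and had -0.83 ± 0.39 at 35 mM (adjusted p = 0.455 by edgeR), with overlapping libraries.

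**Figure D2:**
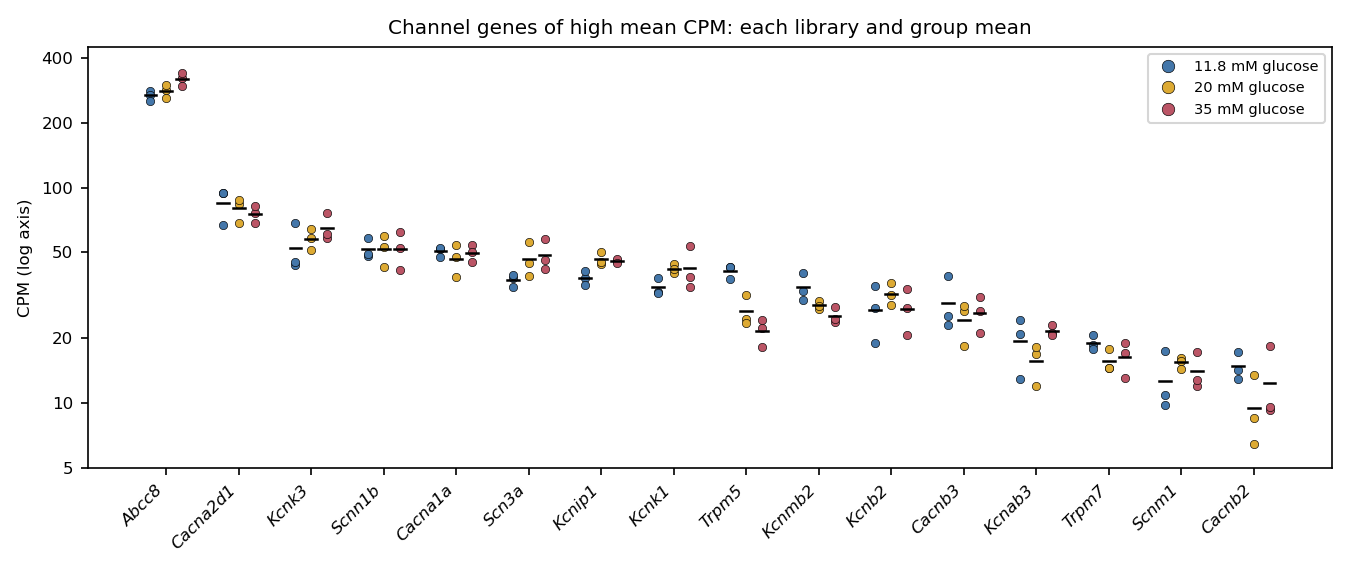
CPM (log axis) of 16 channel genes, those of highest mean CPM among the genes reported here, in each of the 9 libraries (points) with the mean of each concentration (bars). Values are not divided by transcript length and are read within a gene. For Trpm5 the 3 controls, at 37.8 to 43.0 CPM, lie above all 6 other libraries.

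Voltage-gated calcium channels consist of a pore-forming alpha1 subunit with alpha2delta and beta subunits. None of the 3 pore genes tested was called. Cacna1a, the P/Q-type pore, stood at 47.8, 51.65 and 52.5 CPM at 11.8 mM, at 38.3, 47.8 and 54.2 at 20 mM and at 54.0, 50.0 and 45.3 at 35 mM. Its groups overlapped, and the 95% interval of the log2 fold change was -0.33 to 0.28 at 35 mM. The L-type pores, through which most glucose-evoked calcium enters rodent beta cells, gave wider intervals on fewer reads. Cacna1d stood at 11.9 ± 1.72 CPM at 11.8 mM, 12.6 ± 2.44 at 20 mM and 11.7 ± 1.02 at 35 mM, with an interval of -0.50 to 0.45 at 35 mM. Cacna1c stood at 12.95 ± 1.48, 10.1 ± 1.72 and 11.3 ± 0.764 CPM, with an interval of -0.66 to 0.27. Among the pores that were not tested, Cacna1e, the R-type, gave 33 reads in all, and Cacna1h, a T-type, gave 21.

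Among the auxiliary subunits, Cacna2d1, the alpha2delta subunit that binds gabapentin, had log2 fold changes of -0.17 ± 0.15 at 35 mM and -0.09 ± 0.15 at 20 mM. Cacnb2, a cytosolic beta subunit that brings the pore to the membrane, stood at 17.3, 12.9 and 14.2 CPM at 11.8 mM, at 6.44, 8.56 and 13.5 at 20 mM and at 18.4, 9.255 and 9.62 at 35 mM. The range at 35 mM spanned that of the controls, and the values at 20 mM overlapped them by 1 library. The log2 fold change at 20 mM was -0.63 ± 0.28 (adjusted p = 0.544 by edgeR) and at 35 mM -0.24 ± 0.27. Cacnb3, another beta subunit, had -0.24 ± 0.21 at 20 mM and -0.14 ± 0.21 at 35 mM. Cacng2, which is best known as a partner of glutamate receptors, was the gamma subunit gene tested and had -0.10 ± 0.48 at 20 mM and -0.54 ± 0.50 at 35 mM.

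Sodium channels speed the upstroke of the action potential. Scn3a, a pore gene active in islet cells, stood at 38.0, 34.6 and 39.5 CPM at 11.8 mM, at 55.8, 39.0 and 44.7 at 20 mM and at 42.0, 46.0 and 57.7 at 35 mM. All 3 libraries at 35 mM lay above the controls and those at 20 mM overlapped them by 1 library. The log2 fold changes were 0.38 ± 0.16 at 35 mM (95% interval 0.05 to 0.71; adjusted p = 0.3905 by edgeR) and 0.31 ± 0.16 at 20 mM (adjusted p = 0.6525). The other pore genes tested had values of smaller size, with Scn9a at -0.22 ± 0.27 and Scn8a at 0.13 ± 0.29 at 35 mM.

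Scnn1b encodes a subunit of the epithelial sodium channel, which absorbs sodium in kidney, lung and colon. It stood at 48.05, 49.3 and 58.3 CPM at 11.8 mM, at 42.9, 59.4 and 53.1 at 20 mM and at 62.0, 52.35 and 41.6 at 35 mM. Group means of 51.9 ± 5.60, 51.8 ± 8.30 and 52.0 ± 10.2 CPM (n = 3) lay closer together than any replicates of a group, and the 95% interval at 35 mM was -0.32 to 0.33. Its partners Scnn1a and Scnn1g gave 36 and 46 reads in all, against 1721 for Scnn1b.

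Trpm5 lies at chr7:143069153-143094642 on the minus strand of GRCm38. It stood at 43.0, 37.8 and 42.7 CPM at 11.8 mM, at 24.5, 31.7 and 23.6 at 20 mM and at 18.2, 24.3 and 22.35 at 35 mM. All controls lay above all 6 libraries of the raised concentrations, and 20 and 35 mM overlapped. Mean levels were 41.2 ± 2.90, 26.6 ± 4.44 and 21.6 ± 3.13 CPM (SD, n = 3). At 35 mM the level was 0.525 times that of the control, a log2 fold change of -0.93 ± 0.17 (95% interval -1.28 to -0.57; adjusted p = 0.00323 by edgeR's quasi-likelihood test). At 20 mM the log2 fold change was -0.62 ± 0.17 (95% interval -0.97 to -0.27; adjusted p = 0.161), which did not pass. The difference between 35 and 20 mM was -0.31 ± 0.18 (adjusted p = 0.9325), so a step between the raised concentrations was not shown. Without 35 mM replicate 1 the fall at 35 mM was -0.82 and missed the threshold (adjusted p = 0.0534).

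Each sample had been split over 3 barcoded sub-libraries, which are technical repeats. With the TMM factor of their library, Trpm5 ranged in these from 36.45 to 46.25 CPM over the 9 of the control, from 9.63 to 35.2 over the 9 at 20 mM and from 10.98 to 30.2 over the 9 at 35 mM. Every control sub-library thus lay above every sub-library at 35 mM, and also above every one at 20 mM, where Trpm5 was not called. As repeats of the same samples, sub-libraries add no replicates. Exons of Trpm5 overlap those of Tssc4, a gene on the opposite strand, and the counting strand is not given in the sources used here. Tssc4 stood at 49.1, 49.8 and 61.5 CPM at 11.8 mM and at 62.0, 73.75 and 57.7 at 35 mM. Its log2 fold change was 0.27 ± 0.15 at 35 mM (adjusted p = 0.5495) and 0.26 ± 0.15 at 20 mM (adjusted p = 0.702), opposite in sign to that of Trpm5.

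The other Trpm genes were not called. Trpm7, a magnesium-permeable channel fused to a kinase, stood at 19.0 ± 1.47 CPM at 11.8 mM, 15.7 ± 1.84 at 20 mM and 16.35 ± 3.04 at 35 mM (log2 fold change -0.21 ± 0.20 at 35 mM). Trpm2, a calcium-permeable channel gated by ADP-ribose, stood at 3.52 ± 2.27, 2.77 ± 1.55 and 2.245 ± 0.999 CPM (-0.63 ± 0.53 at 35 mM), with overlapping libraries. Trpm4, the closest relative of Trpm5 in function, ranged from 0.531 to 3.00 CPM and was not tested, and Trpm3 gave 25 reads in all. Trpm6 and Trpm8 had no count.

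**Figure D3:**
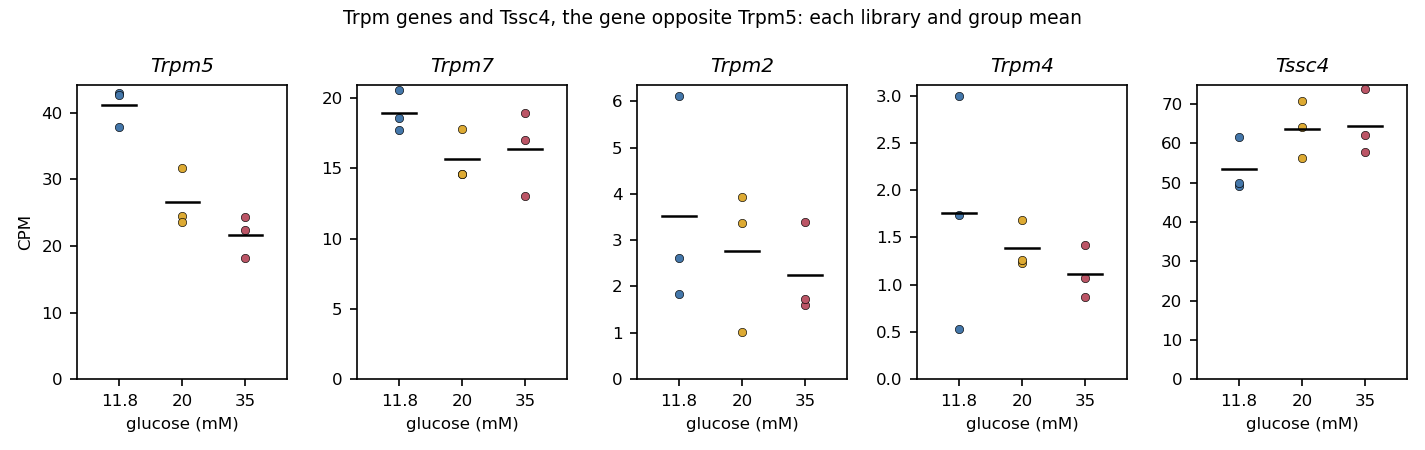
CPM (linear axes from 0, scaled per gene) of 4 Trpm genes and of Tssc4, the gene on the opposite strand to Trpm5, against glucose in mM; points are libraries and bars group means. Trpm5 is lower in all 6 libraries at 20 and 35 mM than in the 3 controls, while the libraries of the other 4 genes overlap between 11.8 and 35 mM.

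Counted over the set, 1 of the 39 channel genes tested was called at 35 against 11.8 mM, against 0.863% of all 9739 genes tested. It was lower, as were 0.236% of all genes, and 0 were called higher, as were 0.626%. At 20 against 11.8 mM 0 were called by edgeR, where 0.185% of all genes were, and at 35 against 20 mM 0, where 0.0308% were. DESeq2 called 1, 0 and 0 channel genes, where it called 93, 65 and 3 genes in all. At 20 against 11.8 mM it gave Trpm5, at a mean of 29.8 CPM, no adjusted p, so it could not have called Trpm5 there. Channel genes of fewer reads may have lacked one too, so its 0 there does not show that the set was unchanged. An unadjusted p under 0.05 was found for 6, 3 and 1 of the 39 genes in these comparisons, which is 15.4%, 7.69% and 2.56% of them, against 10.5%, 7.97% and 5.29% of all genes. The libraries of the concentrations compared did not overlap for 6, 7 and 1 channel genes, against 14.9%, 12.8% and 11.9% of all genes. At 35 mM the 6 were Trpm5 and Kcnmb2, with lower values (6.69% of all genes), and Kcnh1, Scn3a, Abcc8 and Kcnip1, with higher ones (8.22%). At 20 mM Trpm5, Kcnmb2 and Kcnip4 had lower values (6.04% of all genes) and Kcnn3, Kcnip1, Kcnk1 and Kcnh1 higher ones (6.79%). Between 35 and 20 mM 0 had lower values (5.76% of all genes) and Kcnab3 higher ones (6.15%). The channel genes whose libraries did not overlap were thus 15.4% of the 39 at 35 mM, 17.9% at 20 mM and 2.56% between 35 and 20 mM, the last below the share of all genes. The comparisons with 11.8 mM share their controls.

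The median log2 fold change of the 39 genes was -0.01 at 35 mM and -0.10 at 20 mM, beside -0.0027 and -0.0016 over all genes tested. At 35 mM it was 0.08 for the 21 potassium channel genes, -0.14 for the 9 calcium channel genes, 0.09 for the 6 sodium channel genes and -0.63 for the 3 Trpm genes. At 20 mM the corresponding medians were -0.15, -0.10, 0.12 and -0.36. Both Trpm medians are the values of Trpm2 alone, which gave 93 reads in all and had -0.63 ± 0.53 at 35 mM. Trpm7 had -0.21 ± 0.20 there, so the Trpm median does not describe a fall of the family. Precision followed the read number. The median SE at 35 mM was 0.18 for the 21 genes at 10 CPM or more on average and 0.42 for the 18 under it. At 35 mM the 95% interval lay within a 2-fold change either way for 27 of the 39 genes, and within a 1.5-fold change for 11. The smallest change called in any gene at 35 mM was 0.51 on the log2 scale, so no smaller difference was called. It is not a limit for channel genes, whose SE ran from 0.13 to 0.60. Larger differences also went uncalled, such as that of Kcnh1 at 1.01.

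**Figure D4:**
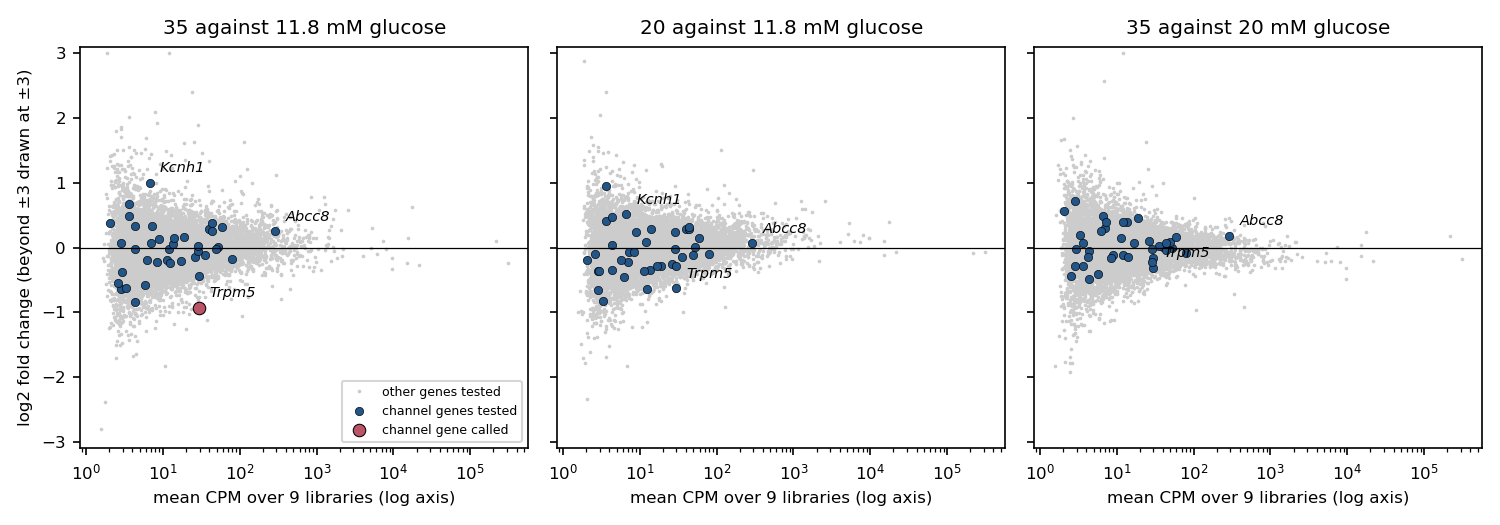
Log2 fold change (y axis) against mean CPM over 9 libraries (log x axis) for all 9739 genes tested (grey) and the 39 channel genes (blue; the called one red) in the 3 comparisons. The channel genes lie within the cloud of all genes, and Trpm5 at 35 against 11.8 mM is the one called.

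**Figure D5:**
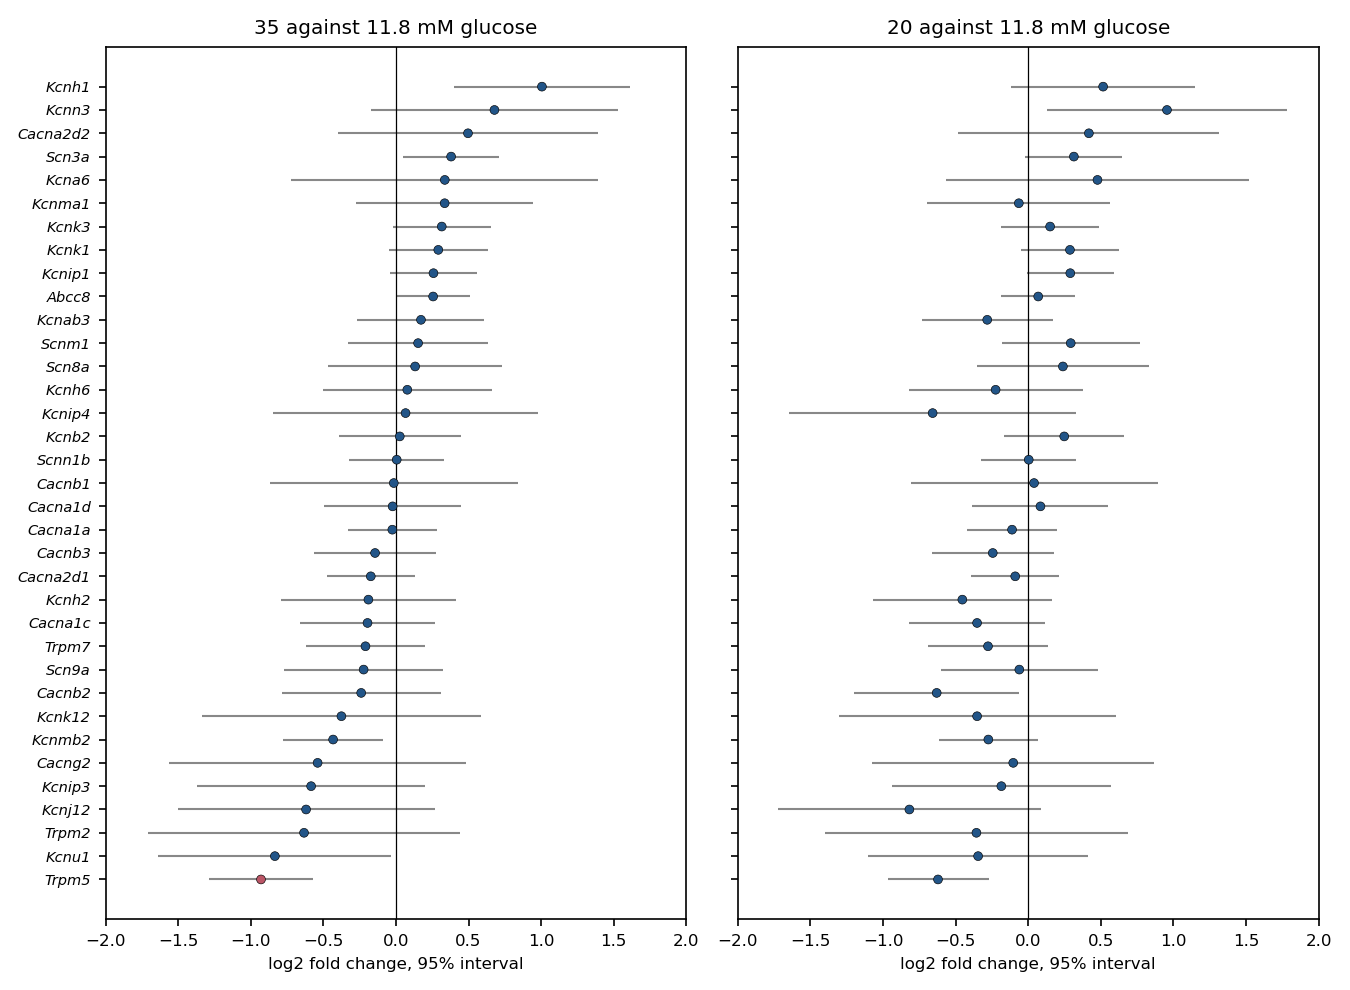
Log2 fold change (points) with its 95% interval (lines) for 35 of the 39 channel genes tested, at 35 and at 20 mM against 11.8 mM, in the order of the values at 35 mM; red marks the called gene. The interval of Trpm5 at 35 mM, from -1.28 to -0.57, excludes 0, and intervals widen for genes of few reads. Intervals are not adjusted for the number of genes tested. At 35 mM those of Kcnh1, Scn3a, Kcnmb2, Abcc8 and Kcnu1 also exclude 0, though these genes were not called. Both panels share the control libraries.

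Other genes of ion flux, glucose sensing and exocytosis in islet cells, 70 in all, were taken from a list that holds no channel of the set. Of the 58 that were tested, edgeR called 0 in each of the 3 comparisons, with an unadjusted p under 0.05 for 10 at 35 against 11.8 mM, 3 at 20 against 11.8 mM and 7 at 35 against 20 mM. These were 17.2%, 5.17% and 12.1% of the 58, against 10.5%, 7.97% and 5.29% of all genes, and edgeR called 0.863%, 0.185% and 0.0308% of all genes. DESeq2 called Ttyh1 at both raised concentrations. Ttyh1, a membrane protein linked to chloride currents, stood at 69.8 ± 23.9 CPM at 11.8 mM, 119 ± 18.6 at 20 mM and 128 ± 17.2 at 35 mM (log2 fold change at 35 mM 0.87 ± 0.21 with adjusted p = 0.0802 by edgeR, and adjusted p = 0.00266 by DESeq2). Itpr1, which releases calcium from the endoplasmic reticulum, had -0.91 ± 0.24 at 35 mM (adjusted p = 0.07195 by edgeR). Adra2a, the adrenergic receptor that inhibits insulin release, had 0.59 ± 0.17 at 35 against 20 mM (adjusted p = 0.747), and Slc30a8, the zinc transporter of insulin granules, -0.41 ± 0.13 (adjusted p = 0.878). Camk2b, a calcium-dependent kinase, had -0.38 ± 0.16 at 20 against 11.8 mM (adjusted p = 0.507). The median of the list was 0.01 at 35 mM and -0.05 at 20 mM.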

How the data were processed

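Libraries were made by CEL-Seq2, which tags transcript 3′ ends, with 3 ng of RNA as input, per the labels' protocols. The authors deposited counts of reads for each gene in each barcoded sub-library. The submitters' processing notes name cutadapt, TopHat, HTSeq, DESeq2 and GRCm38.p4, and their versions, the annotation and the strand setting were not given in the sources used here. A single gene reached 605402 counts in 1 sub-library, above the 4096 possible molecular identifiers of 6 bases, so the counts include amplified copies, and limits of counting cover counting error only.

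The 27 sub-libraries were summed to 9 libraries by the deposited sample sheet. Another count table and a table of normalized values, 30 columns in all, were not used here, since nothing ties those columns to single samples. Spike-ins (92) and 5 summary lines, which held 19.6% to 29.9% of counted reads, were left out. Symbols came from GENCODE M21 by Ensembl identifier (21781 of 22048 genes), on the same GRCm38 coordinates. Exons of 16 of the 39 channel genes tested overlap exons of an opposite-strand gene. Only 3 of the overlapping genes have a row in the table. Counts of the 16 channel genes are uncertain if the counting did not separate strands.

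Tests used R 4.3.3 and edgeR 4.0.16 with TMM scaling (factors 0.907 to 1.14), filterByExpr, 1 mean per concentration over 9 libraries and the robust quasi-likelihood test, tested on simulated data. A gene was called when its p, adjusted over 9739 genes after Benjamini and Hochberg, was under 0.05, and "rose" or "fell" is used only then. CPM used the TMM-scaled library sizes, under which the same number of genes, 54, reached 1 CPM as without scaling. The labels do not tie each library to a mouse, so p-values measure only how far these samples spread, and that spread may be technical. Between replicates of a concentration the chi-square over its degrees of freedom was at least 3.14, more than sampling of independent reads gives. Amplified copies raise this ratio too, and the part of the samples themselves was not tested. An exact permutation test of 3 against 3 cannot go below p = 0.1.

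Members, lists and alternatives were chosen with earlier results of these data known. Named were called members, the 5 of smallest p in each comparison, a list of genes with known roles in beta cell excitability, the 10 of highest mean CPM and, of the other ion transport list, the 2 of smallest p in each comparison. Kcnj12, Kcnip4, Cacna1e, Cacng2, Scnn1a, Scnn1g, Trpm6, Trpm8, Mafa and Tssc4 were named after their values were seen. Some channel genes are counted in the totals but not reported here by name. The alternatives were the Wald test of DESeq2 1.42.0, its size factors within edgeR, a stricter filter (10 CPM in 3 libraries) or none, library sizes without the 20 top genes, a block for the replicate number, each library left out, only the 2 concentrations compared, removal of 2 sub-libraries of low insulin share and an acinar covariate.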

Additional observations from a re-analysis of the deposited data

How the results depend on the processing

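Trpm5 was the channel gene called at 35 against 11.8 mM in 17 of 18 alternatives, with log2 fold changes of -1.02 to -0.82 (adjusted p = 0.0001445 to 0.0534, edgeR or DESeq2). With each library left out in turn the count of channel genes called was 0 to 1 at 35 mM, the 0 arising without 35 mM replicate 1, where the cause was not tested. At 20 against 11.8 mM and at 35 against 20 mM the count was 0 in all 18 alternatives. DESeq2 gave Trpm5 no adjusted p at 20 mM, and perhaps none to channel genes of fewer reads, so its 0 there could not decide. Trpm5 stood at -0.77 to -0.52 and -0.40 to -0.16 in these comparisons. Whether libraries with the same replicate number in the titles share a mouse was not tested. Deviations of same-numbered libraries from their group means correlated at -0.146 to 0.046 over 9 pairs. Those of differently numbered libraries correlated at -0.159 to 0.163, and 1 of 9 libraries correlated best with its own number. With the replicate block 1, 0 and 0 channel genes were called and Trpm5 had -0.94 (adjusted p = 0.00676). Kcnh1 at 35 mM was not called in any of the 17 alternatives that tested it (0.843 to 1.197; adjusted p = 0.0759 to 0.447). Of 1757 values of single named genes under the alternatives, 1746 kept their side of the threshold, 1 lost and 10 gained a call. Those gained were of Ttyh1, Itpr1 and Slc30a8, and no called value turned its sign. Of the 99 results behind these values, Trpm5 at 35 mM was the only one called at first, so most values kept were uncalled ones. A missing adjusted p was counted as uncalled, and an uncalled value that changed sign was counted as kept. The alternative filter of 10 CPM left 22 channel genes, which gave no value for those below it. Over all genes, 84 were called at 35 mM, 148 without the expression filter and 138, 50, 40 and 54 without 11.8 mM replicate 1, 11.8 mM replicate 3, 35 mM replicate 1 and 35 mM replicate 2. At 20 mM 18 were called, 51 without the filter, 65 by DESeq2, 11 with only the 2 concentrations compared, 9 with the acinar covariate and 7 to 35 with a library left out. Between 35 and 20 mM 3 were called, 6 with the acinar covariate and 1 to 7 with a library left out. Depth limits the genes under 10 CPM, whose median SE was 0.42.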

Other observations

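Genes that are well known in beta cells stood at or near 0 in every library of the counts: Kcnj11 gave 3 reads in all and Kcnk16 4, beside 9579 for Abcc8, and Mafa was at 0 in 8 of 9 libraries. The Ensembl identifiers of all 3 are in the table. The control libraries held 93, 92 and 78 channel genes with at least 1 read, those at 20 mM 90, 89 and 94 and those at 35 mM 92, 89 and 93, so that 11.8 mM replicate 3 stood lowest.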
